A study of Mus musculus with 12 samples.

Results

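The urea cycle and its transporters were followed in mouse liver through 10 genes: Cps1, Otc, Ass1, Asl, Arg1 and Nags, which encode the enzymes of the cycle and of its activator, the mitochondrial carriers Slc25a13 and Slc25a15, the channel Aqp9 and the amino acid carrier Slc38a2. A gene was read from a probe set whose annotation names it alone, and the probe set with the highest mean over the arrays was kept where a gene had several. All 10 genes were measured, out of 22180 genes in the series. Only Nags had more than 1 probe set.

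The urea cycle turns ammonia and the nitrogen of aspartate into urea, and it runs in hepatocytes, mainly those near the portal vein. It begins in the mitochondrion, where carbamoyl phosphate is made and joined to ornithine to give citrulline, and it ends in the cytosol, where arginine is split into urea and ornithine. In fasting, amino acids from muscle are used for glucose synthesis in liver, and their nitrogen leaves as urea.

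The study measured liver RNA of male C57Bl/6N mice on 12 Affymetrix arrays in 4 groups of 3. All mice carried floxed p53 alleles (p53 fl/fl, Trp53tm1Brn/J), were 2 months old and received an adenovirus by tail vein at equal titre. The groups were Adeno-Cre fasted, Adeno-GFP fasted, Adeno-Cre fed and Adeno-GFP fed, with a fast of 24 h or free access to standard chow beginning 3 days after injection. The comparisons ask how fasting and p53 depletion each change liver RNA, and whether the fasting response depends on the injected virus. Adeno-Cre differs from Adeno-GFP in viral cargo as well as in removing p53, its Cre acts in the cells that the virus reached, and no uninjected group was used here. No probe set named Trp53 alone and it was not analysed here, so the labels were not checked on the targeted gene.

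Values are log2 expression levels made by RMA, so a difference of 1 is a doubling. The medians of the arrays lay between 6.26 and 6.33, and levels near them are not shown to be above background. Pearson's r between arrays over the 22180 genes was 0.991 to 0.994 within groups and 0.982 to 0.992 between groups. Hepatocyte markers were bright in every group, with a mean of 12.12 to 12.26 over 7 markers. Of 10 genes measured as a check of fasting, 4 were higher and 2 lower in fasted livers on average, and the others did not pass. In the same comparison 4.02% of all genes were called higher and 4.32% lower. The genes of the check that passed included Cyp4a14, a fatty acid hydroxylase (1.92 higher, limma adjusted p = 1.56e-06), and Fasn, fatty acid synthase (fell by 1.20, limma adjusted p = 7.77e-05). In whole liver, fewer cells of a type and less RNA per cell cannot be told apart.

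Differences were tested with limma, and p-values were adjusted over all 22180 genes with a threshold of 0.05. Errors are SD over 3 arrays of a group, or SE for a fitted difference. The labels number the samples without saying how each was collected, so a p-value here reflects how far these arrays spread, which may be technical in part.

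Of the 10 genes, 7 had promoter entries in the RefSeq table of build GRCm38.p6, and those of Cps1, Asl and Arg1 were not printed. Shown here are the 250 bases before the start of the carrier genes Slc25a13 and Slc25a15, which were higher in fasted livers, and of Otc, whose values ran the other way. They are chr6:6217174-6217423 on the minus strand, chr8:22398622-22398871 on the minus strand (the outermost start listed for Slc25a15) and chrX:10252055-10252304 on the plus strand, each written 5′ to 3′ along the gene. Capitals mark TGACG, the 5-base part of the cAMP response element, a sequence that CREB proteins are known to bind.
Slc25a13: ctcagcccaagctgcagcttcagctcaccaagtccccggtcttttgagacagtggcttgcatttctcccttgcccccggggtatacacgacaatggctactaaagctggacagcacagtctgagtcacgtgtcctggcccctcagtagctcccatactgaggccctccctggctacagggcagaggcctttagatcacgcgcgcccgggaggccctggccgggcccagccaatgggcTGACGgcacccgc
Slc25a15: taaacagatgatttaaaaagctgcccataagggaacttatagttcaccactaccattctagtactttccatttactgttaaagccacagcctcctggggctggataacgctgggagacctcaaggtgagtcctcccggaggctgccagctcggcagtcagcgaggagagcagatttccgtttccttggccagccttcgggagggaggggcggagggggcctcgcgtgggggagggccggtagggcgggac
Otc: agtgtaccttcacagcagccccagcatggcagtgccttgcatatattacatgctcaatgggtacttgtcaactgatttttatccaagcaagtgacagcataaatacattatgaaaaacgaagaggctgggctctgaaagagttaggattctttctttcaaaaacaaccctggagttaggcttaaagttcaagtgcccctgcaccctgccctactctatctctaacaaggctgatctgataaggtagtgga

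In these sequences TGACG stood in the Slc25a13 promoter alone, where it begins 13 bases before the start. Over windows of 300 bases (250 before and 50 after the start) and on both strands, TGACG was found in 3 of the 9 windows of the 7 genes, those of Slc25a13, Nags and Slc38a2, against 20.8% of all 32851 windows. The full element TGACGTCA, which contains TGACG, was in 0 of 9 windows and in 1.79% of all windows. TGATGNAA, the composite of C/EBP and ATF4, was in 1 window, that of Aqp9, against 3.97% of all windows. TGTTCT, part of a glucocorticoid receptor site, was in another window of Aqp9 and in 19.0% of all windows. TTGCGCAA, the C/EBP palindrome, was in 0 of 9 windows against 0.183% of all windows. A match is a run of letters and not a bound site.

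Fasting went with higher levels of 6 of the 10 genes when averaged over both injections: Asl, Ass1, Slc25a15, Slc25a13, Arg1 and Cps1. They differed by 0.17 to 0.76 on the log2 scale, which is 1.13-fold to 1.69-fold. None of the 10 passed the test in the other direction, although Otc did under 4 of the 19 alternative settings, given with its values. Of all genes, 4.02% were called higher and 4.32% lower. The median difference of the 10 genes was 0.23, with 8 of 10 above 0, and that of all genes was 0.01, with 51.8% above 0. The 10 genes belong to one pathway and were measured on the same arrays, so they do not repeat the experiment.

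**Figure D1:**
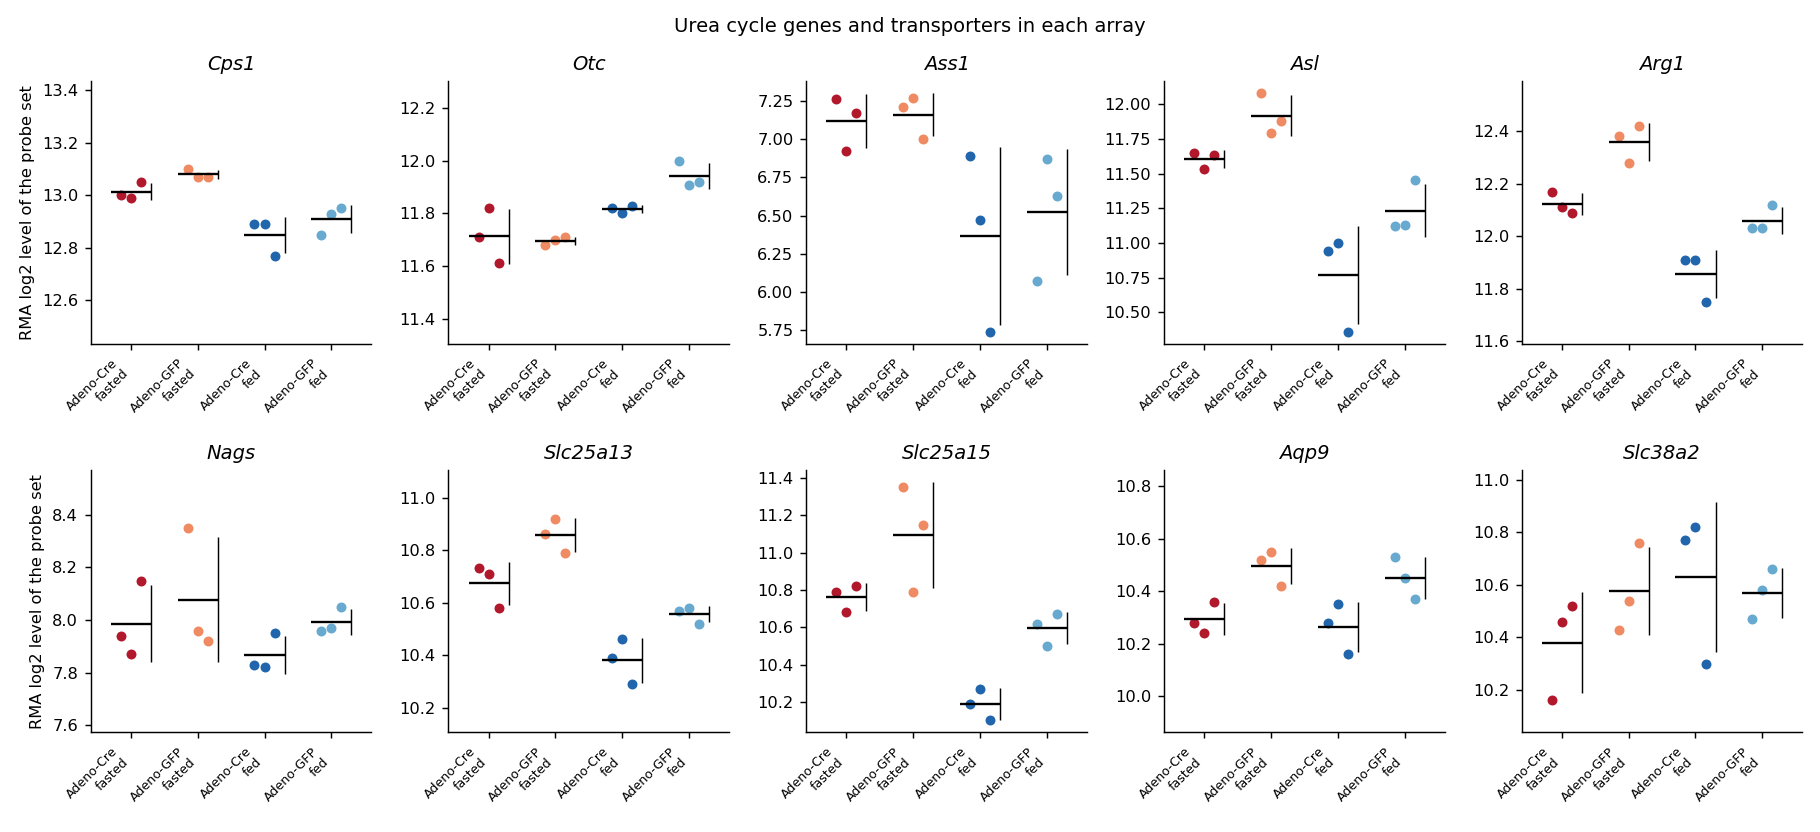
RMA log2 level of each of the 10 genes in each of the 12 arrays, with the mean of each group as a horizontal line and the SD (n = 3) as a vertical line beside it; each gene has its own axis of log2 levels. In Cps1, Ass1, Asl and Slc25a15 all 6 fasted arrays lie above all 6 fed arrays, and in Aqp9 all 6 Adeno-Cre arrays lie below all 6 Adeno-GFP arrays. The shares of all genes apart in these ways were not counted.

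Cps1 encodes carbamoyl phosphate synthetase, which fixes ammonia in the mitochondrion and sets the pace of the cycle. Its probe set (17213894) read 13.00, 12.99 and 13.05 in Adeno-Cre fasted livers and 13.10, 13.07 and 13.07 in Adeno-GFP fasted livers. It read 12.89, 12.89 and 12.77 in Adeno-Cre fed livers and 12.85, 12.93 and 12.95 in Adeno-GFP fed livers. Every fasted array was above every fed array, and the fed groups overlapped each other. The rise averaged 0.17 ± 0.05 (SE, adjusted p = 0.0484), and it missed the threshold when any 1 of the 12 arrays was left out (adjusted p 0.065 to 0.114). After each injection taken alone, the difference was 0.16 after Adeno-Cre (adjusted p = 0.253) and 0.18 after Adeno-GFP (adjusted p = 0.212).

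Nags encodes N-acetylglutamate synthase, which makes the activator that Cps1 needs. Its brighter probe set (17256882) averaged 7.99 ± 0.15 in Adeno-Cre fasted livers and 8.08 ± 0.24 in Adeno-GFP fasted livers, against 7.86 ± 0.07 in Adeno-Cre fed livers and 7.99 ± 0.05 in Adeno-GFP fed livers. The groups overlapped between the diets after either injection. The average fasting difference was 0.10 with a 95% interval of -0.07 to 0.28 (adjusted p = 0.529). The dimmer probe set (17270060) averaged 6.20, 6.43, 6.22 and 6.12 in the same order of groups, near the array medians, and gave 0.15 for fasting (unadjusted p = 0.164).

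Otc, which encodes ornithine transcarbamylase, the enzyme that joins carbamoyl phosphate to ornithine, did not pass the test, and its values ran lower in fasted livers. Its probe set (17533253) read 11.71, 11.82 and 11.61 in Adeno-Cre fasted livers against 11.82, 11.80 and 11.83 in Adeno-Cre fed livers. It read 11.68, 11.70 and 11.71 in Adeno-GFP fasted livers against 12.00, 11.91 and 11.92 in Adeno-GFP fed livers. After Adeno-GFP the diets did not overlap, and after Adeno-Cre they did. The difference was -0.11 after Adeno-Cre (adjusted p = 0.52), -0.24 after Adeno-GFP (adjusted p = 0.0993) and -0.17 ± 0.05 on average (adjusted p = 0.0542). Otc was called lower on average with dim genes left out (adjusted p = 0.0157), quantile normalisation repeated (0.0296), a trended and robust prior (0.00566) or replicate 2 of Adeno-Cre fasted left out (0.039). The promoter printed for Otc holds no TGACG in the window searched, and neither does that of Slc25a15, which was higher with fasting.

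Ass1 encodes argininosuccinate synthetase, the cytosolic enzyme that brings in the nitrogen of aspartate. Its probe set (17369487) read 7.26, 6.92 and 7.17 in Adeno-Cre fasted livers and 7.21, 7.27 and 7.00 in Adeno-GFP fasted livers. It read 6.89, 6.47 and 5.74 in Adeno-Cre fed livers and 6.07, 6.87 and 6.63 in Adeno-GFP fed livers. Each fasted array was above each fed array, and the 6 fed arrays together spread over more than 1 log2 unit. The average rise was 0.69 ± 0.18 (adjusted p = 0.034), and it missed the threshold without any 1 of 8 of the 12 arrays (0.54 to 0.82 over all 12, adjusted p 0.0123 to 0.0774). These levels are close to the array medians, so the size of the difference is uncertain.

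Asl encodes argininosuccinate lyase, which releases arginine and fumarate, and it was called higher with fasting after each injection. Its probe set (17453179) read 11.65, 11.53 and 11.63 in Adeno-Cre fasted livers against 10.94, 11.00 and 10.36 in Adeno-Cre fed livers. It read 12.08, 11.79 and 11.88 in Adeno-GFP fasted livers against 11.12, 11.13 and 11.45 in Adeno-GFP fed livers. No group overlapped another. Asl rose by 0.84 ± 0.15 after Adeno-Cre (1.79-fold, adjusted p = 0.0151) and by 0.68 ± 0.15 after Adeno-GFP (adjusted p = 0.034). On average it rose by 0.76 ± 0.11 (1.69-fold, adjusted p = 0.00128). Without replicate 3 of the Adeno-Cre fed group, the lowest array, the average was 0.66 (adjusted p = 0.000996) and the difference after Adeno-Cre 0.64 (adjusted p = 0.0295).

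The rise of Asl passed the threshold with each of the 12 arrays left out in the average, and after Adeno-Cre with each but replicate 1 of the Adeno-Cre fasted group (adjusted p = 0.0609). After Adeno-GFP it was lost without any 1 of the 3 Adeno-GFP fasted arrays or without replicate 1 or 2 of the Adeno-GFP fed group (adjusted p up to 0.134).

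Arg1 encodes arginase, which splits arginine into urea and ornithine. Its probe set (17239845) read 12.17, 12.11 and 12.09 in Adeno-Cre fasted livers and 12.38, 12.28 and 12.42 in Adeno-GFP fasted livers. It read 11.91, 11.91 and 11.75 in Adeno-Cre fed livers and 12.03, 12.03 and 12.12 in Adeno-GFP fed livers. The diets did not overlap after either injection, but Adeno-Cre fasted livers overlapped Adeno-GFP fed livers. The average rise was 1.22-fold (0.28 ± 0.05, adjusted p = 0.00619), and it passed with each of the 12 arrays left out (adjusted p 0.00711 to 0.0199). The difference was 0.27 after Adeno-Cre (adjusted p = 0.0907) and 0.30 after Adeno-GFP (adjusted p = 0.0521).

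Both mitochondrial carriers were higher in fasted livers. Slc25a15 encodes the ornithine carrier, which takes ornithine into the mitochondrion and brings citrulline out. Its probe set (17508036) read 10.79, 10.68 and 10.82 in Adeno-Cre fasted livers against 10.19, 10.27 and 10.10 in Adeno-Cre fed livers. It read 11.35, 10.79 and 11.15 in Adeno-GFP fasted livers against 10.62, 10.50 and 10.67 in Adeno-GFP fed livers. Every fasted array was above every fed array. Slc25a15 rose 1.49-fold after Adeno-Cre (0.58 ± 0.12, adjusted p = 0.0262), 1.41-fold after Adeno-GFP (0.50 ± 0.12, adjusted p = 0.0464) and 1.45-fold on average (0.54 ± 0.09, adjusted p = 0.00225). The average passed with each of the 12 arrays left out. After Adeno-Cre the call was lost without any 1 of the 6 Adeno-Cre arrays (adjusted p up to 0.0936). After Adeno-GFP the call was lost without each array other than replicate 2 of the Adeno-GFP fasted group (adjusted p up to 0.167).

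Slc25a13 encodes citrin, which exports aspartate from the mitochondrion in exchange for glutamate. Its probe set (17464672) read 10.73, 10.71 and 10.58 in Adeno-Cre fasted livers against 10.39, 10.46 and 10.29 in Adeno-Cre fed livers. It read 10.86, 10.92 and 10.79 in Adeno-GFP fasted livers against 10.57, 10.58 and 10.52 in Adeno-GFP fed livers. The diets did not overlap after either injection. The average rise was 1.23-fold (0.29 ± 0.05, adjusted p = 0.00538), and it passed with each of the 12 arrays left out (adjusted p 0.00457 to 0.0177). The difference was 0.29 after Adeno-Cre (adjusted p = 0.0662) and 0.30 after Adeno-GFP (adjusted p = 0.0583).

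Of the 10 genes, those for proteins of the cell membrane, Aqp9 and Slc38a2, gave no call with fasting. Aqp9, a channel for glycerol, urea and other small solutes, differed by 0.04 on average with a 95% interval of -0.08 to 0.16 (adjusted p = 0.761). Slc38a2, a sodium-coupled carrier for small neutral amino acids, averaged 10.38 ± 0.19 in Adeno-Cre fasted livers against 10.63 ± 0.29 in Adeno-Cre fed livers. It averaged 10.58 ± 0.17 in Adeno-GFP fasted livers against 10.57 ± 0.10 in Adeno-GFP fed livers. Its groups overlapped throughout, and the average difference was -0.12 with an interval of -0.34 to 0.10 (adjusted p = 0.555).

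Taken by injection, 2 of the 10 genes, Asl and Slc25a15, were called higher with fasting after Adeno-Cre, where 1.5% of all genes were. After Adeno-GFP the call fell on the same 2 genes, and on 1.2% of all genes. At an unadjusted p under 0.05 there were 6 of 10 after Adeno-Cre, against 16% of all genes, and 7 of 10 after Adeno-GFP, against 16.7%. Fasted arrays lay wholly above fed arrays for 6 of 10 genes after Adeno-Cre (11.3% of all genes) and for 6 of 10 after Adeno-GFP (11.1% of all genes). In both cases they were Cps1, Ass1, Asl, Arg1, Slc25a13 and Slc25a15.

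The fasting difference itself was compared between injections by the interaction term, and 0 of the 10 genes passed in limma, with 0 at an unadjusted p under 0.05, where 7.56% of all genes were. In the whole series 1 gene was called, which is 0.00451% of those tested. The estimates ran from -0.25 for Slc38a2 (adjusted p = 0.807) to 0.16 for Asl (95% interval -0.31 to 0.63, adjusted p = 0.899). The estimate of Asl rested on replicate 3 of Adeno-Cre fed, without which it was at -0.04. The estimate of Otc was 0.14 both with and without that array. Slc38a2 was at -0.42 without that array. For Cps1 the interval was -0.22 to 0.20, and for Ass1 it was -0.67 to 0.89. In both genes the interval reaches beyond the size of the fasting difference itself.

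**Figure D2:**
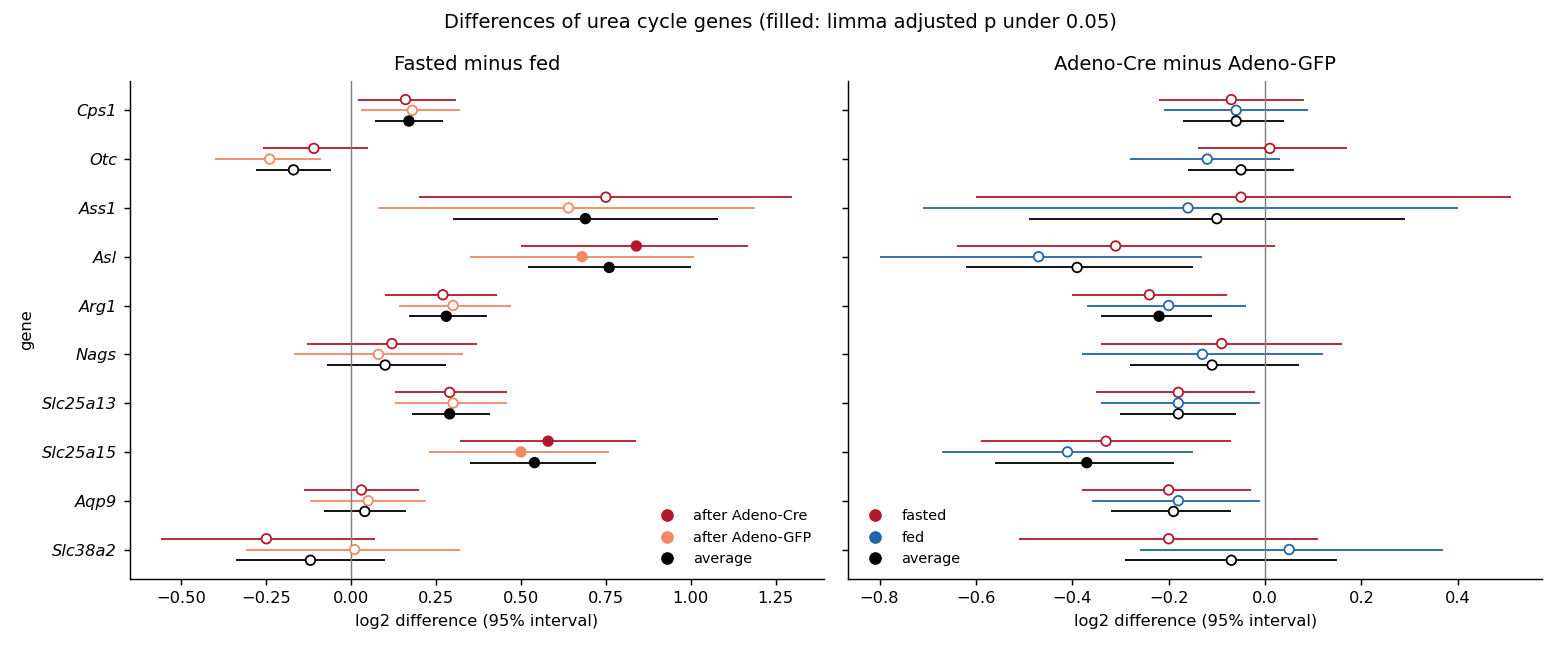
Fitted log2 differences with 95% intervals for the 10 genes, fasted minus fed on the left (after Adeno-Cre, after Adeno-GFP and averaged) and Adeno-Cre minus Adeno-GFP on the right (fasted, fed and averaged). Filled points passed the adjusted threshold: on average Cps1, Ass1, Asl, Arg1, Slc25a13 and Slc25a15 were higher with fasting (Asl and Slc25a15 also after each injection), and Arg1 and Slc25a15 were lower after Adeno-Cre.

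Adeno-Cre livers had lower levels of Slc25a15 and Arg1 than Adeno-GFP livers when averaged over the diets, and 0 of the 10 genes were higher. In the whole series 2.03% of genes were called lower and 3.55% higher. All 10 estimates were below 0, with a median of -0.14, against 59.9% of all genes below 0 and a median of -0.03. Without replicate 3 of Adeno-Cre fed, the estimates of Ass1 (0.06) and Slc38a2 (0.01) were above 0. At an unadjusted p under 0.05 there were 5 of 10 genes, against 19.5% of all genes.

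Slc25a15 averaged 10.76 ± 0.07 in Adeno-Cre fasted livers against 11.10 ± 0.28 in Adeno-GFP fasted livers, and with feeding 10.19 ± 0.08 after Adeno-Cre against 10.60 ± 0.09 after Adeno-GFP. The fed groups did not overlap, and in the fasted groups replicate 2 of Adeno-GFP (10.79) lay within the Adeno-Cre range. Slc25a15 fell by 0.37 ± 0.09 on average (-0.37, adjusted p = 0.0239). The call was lost without any 1 of 5 arrays, namely replicate 2 of Adeno-Cre fasted, replicate 3 of Adeno-Cre fed, replicate 3 of Adeno-GFP fasted and replicates 1 and 3 of Adeno-GFP fed (adjusted p up to 0.0641).

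Arg1 averaged 12.12 ± 0.04 in Adeno-Cre fasted livers against 12.36 ± 0.08 in Adeno-GFP fasted livers, and with feeding 11.86 ± 0.09 after Adeno-Cre against 12.06 ± 0.05 after Adeno-GFP. The injections did not overlap in either diet. Arg1 fell by 0.22 ± 0.05 on average (-0.22, adjusted p = 0.0302). The call was lost without any 1 of 6 arrays, namely replicate 2 of Adeno-Cre fasted, replicate 3 of Adeno-Cre fed, replicates 1 and 3 of Adeno-GFP fasted and replicates 1 and 3 of Adeno-GFP fed (adjusted p up to 0.0799).

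Asl, Slc25a13 and Aqp9 missed the threshold with estimates of like direction. Asl differed by -0.39 ± 0.11 on average (adjusted p = 0.0589), and by -0.29 without replicate 3 of Adeno-Cre fed (adjusted p = 0.0749). For Slc25a13 the difference was -0.18 in fasted and -0.18 in fed livers, and its average missed the threshold (adjusted p = 0.0797). In each diet all Adeno-Cre arrays of Asl and of Slc25a13 were below all Adeno-GFP arrays.

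Aqp9 was alone among the 10 genes in having all 6 Adeno-Cre arrays below all 6 Adeno-GFP arrays. The share of all genes apart in this way was not counted. Its probe set (17528644) read 10.28, 10.24 and 10.36 in Adeno-Cre fasted livers against 10.52, 10.55 and 10.42 in Adeno-GFP fasted livers. In fed livers it read 10.28, 10.35 and 10.16 after Adeno-Cre, against 10.53, 10.45 and 10.37 after Adeno-GFP. The highest Adeno-Cre array and the lowest Adeno-GFP array were close to each other. The average difference was -0.19 ± 0.06 (adjusted p = 0.0678).

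Otc, Ass1, Nags, Cps1 and Slc38a2 gave smaller averages between the injections, from -0.11 for Nags (95% interval -0.28 to 0.07) to -0.05 for Otc (interval -0.16 to 0.06). For Ass1 the average was -0.10 with the widest interval of the 10 genes, -0.49 to 0.29. Slc38a2 (probe set 17320928) read, in fed livers, 10.77, 10.82 and 10.30 after Adeno-Cre against 10.47, 10.58 and 10.66 after Adeno-GFP, so the group with the highest mean also held 1 of the lowest arrays.

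Within a diet, limma called 0 of the 10 genes between the injections. In fasted livers 0.482% of all genes were called lower and 2.26% higher after Adeno-Cre, and in fed livers 0.415% were lower and 1.08% higher. At an unadjusted p under 0.05 there were 4 of 10 genes in fasted livers, against 16.7% of all genes, and 5 of 10 in fed livers, against 12.4%. In fed livers the estimate was -0.47 for Asl (adjusted p = 0.195) and -0.41 for Slc25a15 (adjusted p = 0.136), and without replicate 3 of Adeno-Cre fed it was -0.27 and -0.37. In fasted livers it was -0.33 for Slc25a15 (adjusted p = 0.185) and -0.31 for Asl (adjusted p = 0.337). The comparisons within a diet and those of fasting after an injection share arrays.

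Adeno-Cre arrays lay wholly below Adeno-GFP arrays for 5 of 10 genes in fasted livers (Cps1, Asl, Arg1, Slc25a13 and Aqp9), against 10.9% of all genes. In fed livers they did so for 7 of 10 (Otc, Asl, Arg1, Nags, Slc25a13, Slc25a15 and Aqp9), against 11.5% of all genes. Asl, Arg1, Slc25a13 and Aqp9 were on both lists.

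Most of the 10 genes ordered the 4 groups alike. From highest to lowest mean, Adeno-GFP fasted, Adeno-Cre fasted, Adeno-GFP fed and Adeno-Cre fed was the order in 6 genes: Cps1, Ass1, Asl, Arg1, Slc25a13 and Slc25a15. Of all genes 7.62% had that order, 1 of 24 possible. For Asl each neighbouring pair of groups was apart without overlap. For Arg1 and Slc25a13 the middle pair overlapped, for Slc25a15 the upper pair, for Cps1 the lower pair, and for Ass1 both the upper and the lower pair.

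In Nags and Aqp9 the order was Adeno-GFP fasted, Adeno-GFP fed, Adeno-Cre fasted and Adeno-Cre fed, which 7.06% of all genes had. Otc was highest in Adeno-GFP fed and lowest in Adeno-GFP fasted livers, and Slc38a2 was highest in Adeno-Cre fed and lowest in Adeno-Cre fasted livers. In Otc the fasted groups overlapped each other and Adeno-Cre fasted overlapped Adeno-Cre fed livers, and in Slc38a2 no neighbouring groups were apart.

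Replicate 3 of the Adeno-Cre fed group was the lowest of the 12 arrays for 7 of the 10 genes, namely Cps1, Ass1, Asl, Arg1, Slc25a13, Slc25a15 and Aqp9. It was the lowest array for 9.64% of all genes. Without it, limma lost 5 calls. The fasting average of Cps1 was 0.15 (adjusted p = 0.114), the fasting difference of Slc25a15 after Adeno-Cre was 0.54 (adjusted p = 0.0934), and the averages between injections were -0.20 for Arg1 (adjusted p = 0.0762) and -0.35 for Slc25a15 (adjusted p = 0.0615). The last was the fasting difference of Slc25a15 after Adeno-GFP, which does not use that array but shares its estimate of spread (adjusted p = 0.0616). The fasting averages of Asl, Arg1, Slc25a13, Slc25a15 and Ass1 passed without it, with 0.54 for Ass1 (adjusted p = 0.0481). Such a loss of calls was not particular to this array. Without replicate 1 of Adeno-GFP fed, 4 genes were called in the fasting average and 0 between injections on average. Fasting then called 0 after Adeno-GFP and 2 after Adeno-Cre. The same counts were found without replicate 3 of Adeno-GFP fasted.

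Genes that supply the cycle with ammonia, glutamate and aspartate changed with fasting in part, as 5 of 14 measured genes were higher and 0 lower on average, with a median of 0.13. For this list and those that follow, 4.02% of all genes were called higher and 4.32% lower in the fasting average. In the average between injections, 3.55% of all genes were called higher and 2.03% lower after Adeno-Cre. Oat, ornithine aminotransferase, averaged 11.78 ± 0.15 in Adeno-Cre fasted and 12.19 ± 0.11 in Adeno-GFP fasted livers, against 10.97 ± 0.05 in Adeno-Cre fed and 11.43 ± 0.20 in Adeno-GFP fed livers, and rose by 0.78 ± 0.08 (adjusted p = 0.000123). Got1, the cytosolic aspartate aminotransferase, rose by 0.76 ± 0.13 (adjusted p = 0.00356). The alanine aminotransferases rose as well, Gpt of the cytosol by 0.58 ± 0.07 (adjusted p = 0.000607) and Gpt2 of the mitochondrion by 0.52 ± 0.08 (adjusted p = 0.00203). Slc25a22, a mitochondrial glutamate carrier, rose by 0.51 ± 0.12 (adjusted p = 0.0197).

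Other genes of that supply list did not pass. Glud1, glutamate dehydrogenase, which frees ammonia from glutamate, differed by -0.06 with a 95% interval of -0.16 to 0.04. Slc25a12, the paralog of citrin, differed by 0.18 (adjusted p = 0.0525), and Got2, the mitochondrial aspartate aminotransferase, by 0.19 (adjusted p = 0.0512). Arg2, the mitochondrial arginase, differed by -0.05 and Slc25a2, another ornithine carrier, by -0.16, neither called.

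Between the injections 3 of the same 14 genes were lower after Adeno-Cre and 0 higher, with a median of -0.11. Gpt fell by 0.48 ± 0.07 (-0.48, adjusted p = 0.00202), Oat by 0.44 ± 0.08 (-0.44, adjusted p = 0.00512) and Glul, glutamine synthetase, by 0.21 ± 0.05 (-0.21, adjusted p = 0.0386). Gpt was also called within fed livers (-0.62, adjusted p = 0.0171). Oat and Glul are also on the list of pericentral markers used below.

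**Figure D3:**
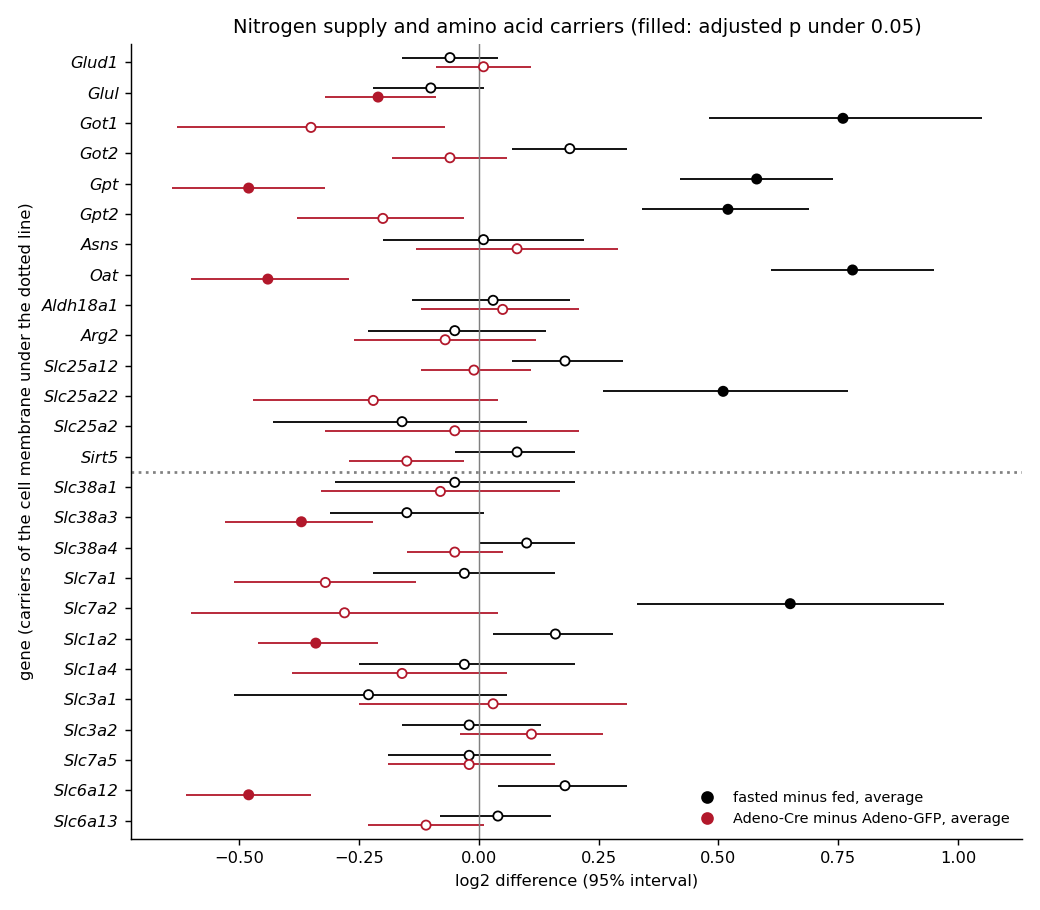
Average log2 differences with 95% intervals for 14 genes of ammonia and glutamate supply (above the dotted line) and 12 amino acid carriers of the cell membrane (below it), fasted minus fed in black and Adeno-Cre minus Adeno-GFP in red, filled where the adjusted p passed. Oat, Got1, Gpt, Gpt2, Slc25a22 and Slc7a2 are filled with fasting, and Gpt, Oat, Glul, Slc38a3, Slc1a2 and Slc6a12 between injections.

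Among 12 amino acid carriers of the hepatocyte membrane, 1 was higher and 0 lower with fasting, with a median of -0.02. It was Slc7a2, a carrier of arginine, ornithine and lysine, which averaged 11.27 ± 0.16 in Adeno-Cre fasted and 11.61 ± 0.09 in Adeno-GFP fasted livers, against 10.67 ± 0.54 in Adeno-Cre fed and 10.90 ± 0.20 in Adeno-GFP fed livers (0.65 ± 0.15, adjusted p = 0.0177). Slc38a4, a relative of Slc38a2, differed by 0.10 (adjusted p = 0.218) and Slc38a1, another relative, by -0.05. Between the injections 3 carriers were lower after Adeno-Cre and 0 higher, with a median of -0.14. They were Slc6a12, a betaine and GABA carrier (-0.48 ± 0.06, adjusted p = 0.000658), Slc38a3, a glutamine carrier (-0.37 ± 0.07, adjusted p = 0.00966), and Slc1a2, a glutamate carrier (-0.34 ± 0.06, adjusted p = 0.00414).

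Of 16 genes known to regulate urea cycle genes or fasting metabolism, 4 were higher and 2 lower with fasting, with a median of -0.01. Ppargc1a, a coactivator of glucose synthesis genes, averaged 9.88 ± 0.25 in Adeno-Cre fasted and 10.11 ± 0.11 in Adeno-GFP fasted livers, against 9.10 ± 0.40 in Adeno-Cre fed and 9.31 ± 0.05 in Adeno-GFP fed livers (0.79 ± 0.12, adjusted p = 0.00188). Hnf4a, a nuclear receptor of hepatocytes, rose by 0.42 (adjusted p = 0.00618), Creb3l3, a CREB relative of liver, by 0.28 (adjusted p = 0.00695) and Crtc2, a CREB coactivator, by 0.24 (adjusted p = 0.0352). Pparg, a nuclear receptor of lipid storage, fell by 0.74 (-0.74, adjusted p = 0.00226), and Nr3c1, the glucocorticoid receptor, by 0.22 (-0.22, adjusted p = 0.0496). Between the injections Insr, the insulin receptor, was lower after Adeno-Cre (-0.25 ± 0.06, adjusted p = 0.0276), and no other of the 16 passed.

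Periportal markers, genes of the hepatocytes where the cycle mainly runs, were higher with fasting in part. Their mean over 9 markers was 10.88 in Adeno-Cre fasted livers (range 10.84 to 10.91) against 10.60 in Adeno-Cre fed livers (10.50 to 10.68). It was 10.96 in Adeno-GFP fasted livers (10.89 to 11.04) against 10.77 in Adeno-GFP fed livers (10.71 to 10.81). Of the 9 markers, 4 were higher with fasting (Hal, Hsd17b13, Gldc and Etnppl) and 1 was lower (Ctsc), with a median of 0.20. Of all genes 4.02% were called higher and 4.32% lower. The mean of the 6 enzymes was 10.59 in Adeno-Cre fasted against 10.25 in Adeno-Cre fed livers and 10.72 in Adeno-GFP fasted against 10.44 in Adeno-GFP fed livers. The part of these markers in the fasting result was not tested.

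Between the injections the periportal markers were mixed, with 2 of 9 higher and 3 lower after Adeno-Cre and a median of -0.06. Pericentral markers, genes of hepatocytes by the central vein, were called lower in 11 of 13 after Adeno-Cre and higher in 0, with a median of -0.29. Of all genes 2.03% were called lower and 3.55% higher. Their mean was 9.62 in Adeno-Cre fasted livers against 9.88 in Adeno-GFP fasted livers, and in fed livers 9.66 after Adeno-Cre against 10.00 after Adeno-GFP, with no overlap in either diet. With fasting 1 of the 13 was higher and 2 were lower. The part of pericentral markers in the results between injections was not tested.

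**Figure D4:**
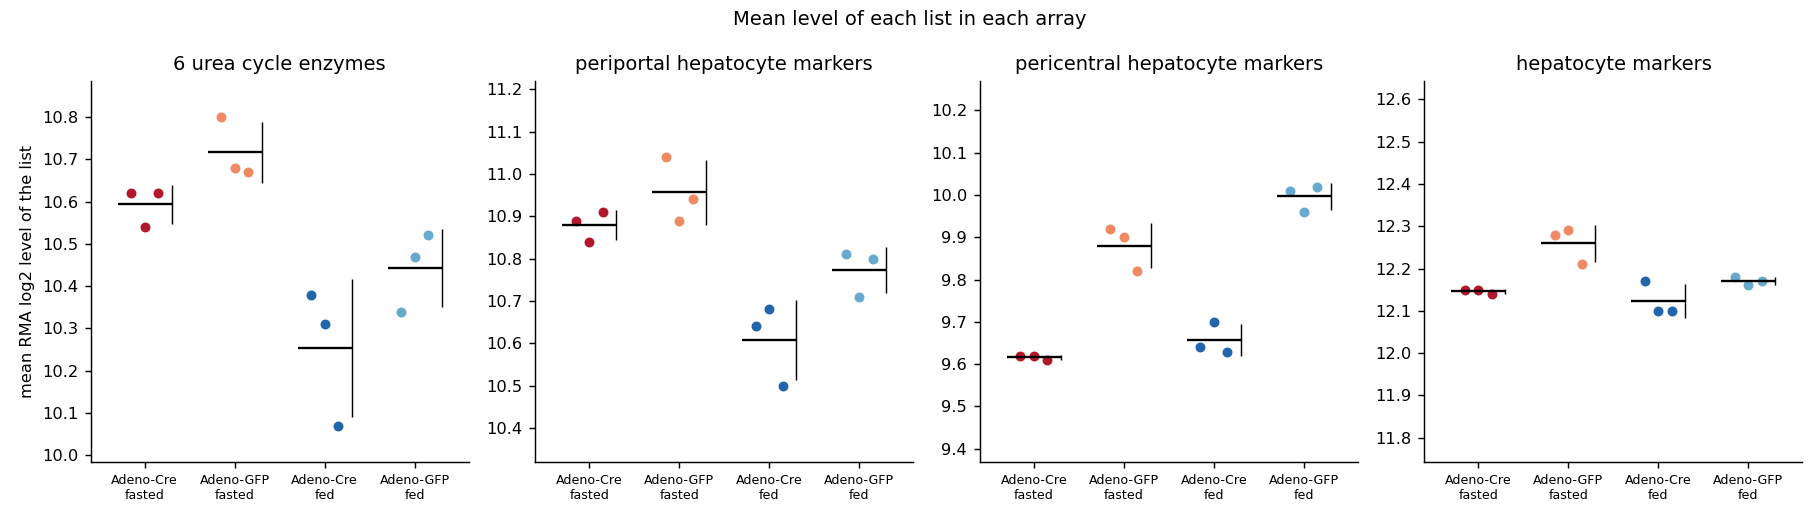
Mean RMA log2 level over 6 urea cycle enzymes, 9 periportal, 13 pericentral and 7 hepatocyte markers in each array, with group means as horizontal lines and SD (n = 3) as vertical lines; the 4 axes cover nearly the same length. The enzymes and the periportal markers are highest in Adeno-GFP fasted and lowest in Adeno-Cre fed livers, and the pericentral markers are lower in both Adeno-Cre groups.

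The mean of 7 hepatocyte markers was 12.15 in Adeno-Cre fasted livers (range 12.14 to 12.15) against 12.26 in Adeno-GFP fasted livers (12.21 to 12.29), and in fed livers 12.12 after Adeno-Cre (12.10 to 12.17) against 12.17 after Adeno-GFP (12.16 to 12.18). With that mean as a covariate, a fit chosen after seeing the data, limma called 0 of the 10 genes in the fasting average, 0 between the injections and 2 (Asl and Slc25a15) with fasting after Adeno-Cre. The fasting average was then 0.63 for Asl (adjusted p = 0.12), 0.57 for Slc25a15 (adjusted p = 0.0838) and 0.29 for Arg1 (adjusted p = 0.152). Between the injections Slc25a15 was at -0.42 (adjusted p = 0.433) and Arg1 at -0.23 (adjusted p = 0.502), differences as large as without the covariate. Other differences shrank there: Asl from -0.39 to -0.22, Slc25a13 from -0.18 to -0.09 and Aqp9 from -0.19 to -0.11. Slc38a2 went from -0.07 to -0.12. Ass1 turned from -0.10 to 0.33 between the injections, and its fasting average went from 0.69 to 0.36. In the fasting average 285 genes were called in all against 1850 without the covariate. With fasting after Adeno-Cre it was 440 against 592, and between the injections on average 0 against 1239. With 0 of all genes called there, 0 of the 10 is no result about these genes. The list includes Hnf4a, which itself rose with fasting.

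Markers of other cell types of liver were read as well. Kupffer cell markers, 10 in number, averaged 7.50 in Adeno-Cre fasted, 7.85 in Adeno-GFP fasted, 7.83 in Adeno-Cre fed and 7.85 in Adeno-GFP fed livers, and 1 was called lower with fasting. Of 10 stellate cell markers 3 were lower with fasting and 2 lower after Adeno-Cre. Of 10 sinusoidal endothelial markers 1 was lower with fasting and 0 were called between injections. Averaged over the diets, all 10 estimates between injections were below 0 for Kupffer cell (median -0.15), stellate cell (median -0.20) and endothelial markers (median -0.17). Of all genes 59.9% were below 0 there. Within a diet, Kupffer cell markers had a median of -0.32 in fasted and 0 in fed livers, where 5 of 10 were below 0. Endothelial markers had a median of -0.31 in fed and -0.07 in fasted livers, where 6 of 10 were below 0. Markers of cholangiocytes, lymphocytes, neutrophils and monocytes, and red cells averaged 5.44 to 6.12 over all groups, below the array medians. What these cells contribute to the 10 genes was not tested.

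Over the 12 arrays, the profile of the 6 enzymes was set against all other genes by the root-mean-square difference of standardised levels, where 0 means the same profile. The 8 named genes nearest to it were Timm17b, a mitochondrial import subunit (0.17), Yif1a, a protein of the secretory pathway (0.20), Pdk2, a pyruvate dehydrogenase kinase (0.21), Sardh, which degrades sarcosine (0.24), Ttc38 (0.28), Gpt (0.31), Sult1a1, a sulfotransferase (0.32), and Prodh, which degrades proline (0.32). These distances share the arrays and the groups with the results above and describe this data set. Of the 10 genes themselves, Asl (0.23), Arg1 (0.33), Slc25a15 (0.34) and Cps1 (0.35) were nearest, and Slc25a13 (0.47) and Ass1 (0.60) were farther. Nags (0.82), Aqp9 (0.84), Slc38a2 (1.37) and Otc (1.65) were the farthest, although Otc and Nags are among the 6 enzymes averaged. Cps1, Ass1, Asl and Arg1 are also part of that mean, so their distance to it is small in part by construction.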

How the data were processed

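Liver RNA (200 ng, integrity number above 7, per the labels' protocols) was hybridised to 12 Affymetrix arrays, 3 per group. The deposited log2 levels of probe sets were made by the authors with RMA, per the submitters' processing notes. RMA's software and version, the probe annotation and the genome build were not given in the sources used here. The RMA method subtracts background, equalises array distributions and compresses differences of dim probe sets. The values gave no detection call, and the number of arrays limits the precision.

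Of 41345 probe sets, the platform annotation named 1 gene for 23521, several for 1814 and did not list 16010. Identifiers of 23328 were found in a RefSeq table, 193 were not and 0 symbols changed. The probe set with the highest mean stood for each of 22180 genes.

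Group means of all 12 arrays were fitted in limma 3.58.1 (R 4.3.3; lmFit, eBayes without trend or robust options) with Benjamini-Hochberg adjustment within each contrast, after the fit was tested on simulated data. The alternatives were another normalization, dim genes left out, averaged or all probe sets, another prior, a replicate block, only the groups compared, a covariate and each array left out. All 10 genes are given. Of each other pathway list, the genes that passed in the averages are named (at most 6 by smallest p). Of the check of fasting only Cyp4a14 and Fasn are named. Others are examples chosen after their values were seen. The genes, lists and rules were chosen with earlier results of these data known.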

Additional observations from a re-analysis of the deposited data

How the results depend on the processing

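Of 1370 alternative values of single genes, 78 lost a call, 31 gained one and 37, none called in either fit, turned sign. The other 1224 kept their side of the threshold and were counted as keeping their direction. Signs were read from rounded differences, so a difference rounded to 0 could not count as turned. An example is the interaction of Slc25a13, at 0 in the main fit and 0.07 with the covariate. The number of the 10 genes called with fasting on average was 6, all higher, with 4 to 6 when 1 array was left out, 7 with dim genes left out or with a trended and robust prior (6 higher and 1 lower in both) and 0 with the hepatocyte marker mean as a covariate, chosen after seeing the data. With quantile normalisation repeated, or without replicate 2 of Adeno-Cre fasted, the 6 were 5 higher and 1 lower, and the lower gene was Otc each time. Between injections on average it was 2, with 0 to 3 when 1 array was left out, 5 with dim genes left out, 4 with a trended and robust prior, 0 with all probe sets tested and 0 with that covariate. After Adeno-GFP fasting called 2, with 0 to 2 leaving out 1 array, 5 without dim genes (4 higher and Otc lower, adjusted p = 0.0307), 6 with the trended and robust prior (5 higher and Otc lower, adjusted p = 0.0125), 1 with only the groups compared, 0 with all probe sets and 0 with the covariate. After Adeno-Cre fasting called 2, with 0 to 2 leaving out 1 array, 4 without dim genes, 5 with the trended and robust prior, 1 with only the groups compared and 1 with all probe sets. In fasted livers 0 were called between injections, with 0 to 1 leaving out 1 array, 1 without dim genes and 1 with the trended and robust prior, and in fed livers 0, with 0 to 1. The interaction called 0 in each. Leaving out dim genes and testing all probe sets change how many tests are adjusted for, and the cause of the other changes was not tested.

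Counts over all genes moved by more than 1.5 times as follows. Between injections on average, 1239 genes became 765 with all probe sets and 0 with the covariate. In fasted livers 609 became 940 without dim genes, 939 with the trended and robust prior, 320 with only the groups compared, 367 with all probe sets and 0 with the covariate. In fed livers 331 became 606, 539, 145, 59 and 61 under the same 5 settings. With fasting after Adeno-GFP 682 became 1160, 1038, 394, 292 and 29. With fasting after Adeno-Cre 592 became 1049, 935, 212 and 235 under the first 4 of them. The fasting average of 1850 became 1134 with all probe sets and 285 with the covariate, and the interaction's 1 gene became 0 with repeated quantile normalisation, the block, all probe sets or the covariate. Leaving out 1 array gave 824 to 1353 between injections on average, 355 to 800 in fasted and 31 to 362 in fed livers, 275 to 720 and 207 to 713 with fasting after Adeno-GFP and Adeno-Cre, 1239 to 1790 in the fasting average, and 0 to 1 for the interaction.

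The labels number the arrays 1 to 3 in each group. Deviations of same-numbered arrays from their group means correlated at -0.091 to 0.147 over 18 pairs (median 0.013, 3 over 0.1). Those of other arrays correlated at -0.179 to 0.129 over 36 pairs (median -0.016, 2 over 0.1). The ranges overlapped and the labels state no pairing, so the numbers were not taken to pair the samples. With the replicate number as a block, 1 of the 10 genes was called in limma between injections on average (Arg1 went to an adjusted p of 0.0527). Cps1 went to 0.0769 in the fasting average and Asl to 0.0582 with fasting after Adeno-GFP. In that last comparison 2 genes were still called, as Slc25a13 gained a call (adjusted p 0.05 as rounded) beside Slc25a15 (0.0485).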

Other observations

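Among 9 genes beside Aqp9, which encode water, glycerol and urea carriers and the glycerol enzyme Gpd1, 1 was higher and 1 lower with fasting on average, and 0 were called between injections. Aqp4, a water channel, averaged 8.12 ± 0.42 in Adeno-Cre fasted and 8.02 ± 0.07 in Adeno-GFP fasted livers, against 7.16 ± 0.15 in Adeno-Cre fed and 7.39 ± 0.10 in Adeno-GFP fed livers (SD, n = 3 each), and rose by 0.79 ± 0.12 (SE, limma adjusted p = 0.00152). Aqp8, another water channel, averaged 7.20 ± 0.16 in Adeno-Cre fasted and 6.63 ± 0.19 in Adeno-GFP fasted livers, against 7.41 ± 0.24 in Adeno-Cre fed and 7.35 ± 0.23 in Adeno-GFP fed livers, and fell by 0.46 ± 0.11 (-0.46, limma adjusted p = 0.0206). The urea transporters Slc14a1 and Slc14a2 differed by -0.04 and -0.03 with fasting, neither called. Gpd1, which encodes glycerol-3-phosphate dehydrogenase, differed by 0.24 (limma adjusted p = 0.149).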
